A study of Homo sapiens with 6 samples.

Results

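NRF2, encoded by *NFE2L2*, is the transcription factor of the oxidative stress response, and its pathway was followed here together with the ferritin genes in H226 cells after knockdown of the long noncoding RNA *SWINGN*, also named LINC00565. The set had 10 listed genes, fixed by name: *NFE2L2*, its inhibitor *KEAP1*, the NRF2 targets *HMOX1*, *NQO1*, *TXNRD1*, *GCLC*, *GCLM* and *SRXN1*, and the ferritin subunits *FTH1* and *FTL*. This set and the further gene lists below were chosen with earlier results of these data known. Their shares of called genes are therefore descriptions only. Of the 10 listed genes, 9 were found among the 17222 gene names of the count table and all 9 passed the filter on low counts, while *SRXN1* was not analysed here. H226 is an established human cell line labelled as lung squamous carcinoma. Cells received either the control antisense oligonucleotide, ASO_CTRL, or ASO_LINC#3, directed against *SWINGN*, each by lipid transfection at 50 nM, and were collected after 48 h. RNA-seq was made from 3 libraries of each condition, and the comparison asks which transcripts differ when *SWINGN* is depleted. Knockdown rested on a single oligonucleotide sequence, and the level of *SWINGN* itself was not analysed here. The study's methods paragraph on RNA-seq names BJ fibroblasts, whereas its results, its figure legend and the sample labels name H226.

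In unstressed cells KEAP1 holds NRF2 in the cytoplasm and presents it to a ubiquitin ligase built on CUL3 and RBX1, so that NRF2 is degraded. Electrophiles and oxidants modify KEAP1, NRF2 accumulates, pairs with a small MAF protein and binds antioxidant response elements, where BACH1 with the same MAF partners acts as a repressor. The targets make glutathione, reduce thioredoxin and quinones and break down heme, and ferritin stores the iron that heme breakdown releases. Lung squamous carcinomas often carry lesions of *NFE2L2* or *KEAP1* that keep this pathway on.

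Reads counted on genes ranged from 3686828 to 10546786 per library, and ASO_LINC#3 replicate 3 had the fewest. Reads assigned to no gene made up 24.8%, 26.3% and 25.1% of ASO_CTRL replicates 1, 2 and 3. In ASO_LINC#3 replicates 1, 2 and 3 they made up 28%, 28.1% and 27.9%, above every control. The part of this difference in the results was not tested. The study reports biological triplicates for its experiments in general, with exceptions named in figure legends. How the cultures of these libraries were kept apart is not described. The p-values measure the spread between these libraries, part of which may be technical. Markers were looked up as a check of the label. Of 6 squamous markers, *KRT14*, *TP63*, *SOX2* and *DSG3* were not analysed here, *KRT6A* had at most 1 read in an ASO_CTRL library and 4 to 14 in ASO_LINC#3, and *KRT5* had a log2 fold change of −0.58 (edgeR adjusted p = 0.0192). The squamous pair summed to between 94.4 and 117 CPM (the reads of a gene scaled to the same effective library total, by TMM) in ASO_CTRL and between 63.5 and 78.9 CPM in ASO_LINC#3, without overlap. The simple epithelial and mesothelial list, with 6 of 7 genes measured, summed to between 12314 and 13371 CPM in ASO_CTRL and between 7247 and 12692 CPM in ASO_LINC#3. In it the mesothelial marker *CALB2* had a log2 fold change of −1.97 (edgeR adjusted p = 0.000195) and *MSLN* one of 0.06 (adjusted p = 0.91). The keratins *KRT7*, *KRT8*, *KRT18* and *KRT19* had −0.46 to −0.33 (adjusted p from 0.119 to 0.22). The fibroblast list, with 3 of 7 genes measured, summed to between 388 and 486 CPM in ASO_CTRL and between 220.5 and 248 CPM in ASO_LINC#3, without overlap. Its genes *COL1A1*, *COL3A1* and *THY1* had log2 fold changes of −1.36, −1.58 and −0.17 (edgeR adjusted p = 0.00033, 0.00261 and 0.502). Of the leukocyte and endothelial list only *CD68*, 1 of 6 genes, was measured, at 1.08 to 1.89 CPM in ASO_CTRL and 2.79 to 6.51 CPM in ASO_LINC#3, without overlap (log2 fold change 1.54, edgeR adjusted p = 0.0265). The part of these shifts in the results below was not tested.

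Ferritin mRNAs carry a hairpin near their 5′ end, the iron-responsive element, to which iron regulatory proteins bind when iron is scarce and block translation. Both subunits share it almost letter for letter, and it is shown here because the subunits are compared with each other in the results. A search for CNNNNNCAGTGN, the bulged C and the loop of the hairpin, in the first 150 bases of the GENCODE transcript on the transcript strand found it in both genes, and in 5.16% of 19859 protein-coding transcripts. The loop is in capitals, at bases 45 to 50 of the *FTH1* transcript and 39 to 44 of the *FTL* transcript.
FTH1: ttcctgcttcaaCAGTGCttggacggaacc
FTL: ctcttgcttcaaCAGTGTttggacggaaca

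The promoters of 7 of the 9 measured genes were present in the RefSeq table of promoters (GRCh38.p14, from 250 bases before to 50 bases after a start site). *HMOX1* and *FTH1* were not among them. The core of the antioxidant response element, TGACNNNGC, was searched on both strands. It was present in *KEAP1*, *TXNRD1* and *GCLM* and in 13.3% of all 35116 promoter entries, and such a match is a description of the letters only. A gene counted if any of its entries matched, and *NFE2L2*, *KEAP1* and *TXNRD1* have multiple entries. The share of entries is therefore not a like-for-like reference for genes. Bases outside this window were not searched. The matches of *GCLM*, 34 bases before its start site, and *TXNRD1*, 99 and 8 bases before the upstream start and 102 bases before the downstream start, are printed in the direction of the gene. Capitals mark the core or its reverse complement, and the coordinates are those of the capitals.
GCLM, chr1:93909456-93909464, minus strand: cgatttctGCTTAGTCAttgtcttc
TXNRD1, chr12:104215680-104215688, plus strand: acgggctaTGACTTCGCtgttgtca
TXNRD1, chr12:104215771-104215779, plus strand: gtccttcgGCTCCGTCAgttcccac
TXNRD1, chr12:104286930-104286938, plus strand: ggatttctGCTTTGTCAttctgact

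After *SWINGN* knockdown *HMOX1*, the heme-degrading enzyme, and *FTH1*, the ferritin heavy chain, rose, and the other 7 measured genes did not pass the test. *HMOX1* rose 2.65-fold and *FTH1* 1.58-fold. All 14660 tested genes entered the quasi-likelihood F-test of edgeR with Benjamini-Hochberg adjustment, and calling required both a log2 fold change past 0.5 in size and adjusted p under 0.01. By this rule 2 of the 9 genes were called higher and 0 lower, or 22.2%, against 7.54% of all tested genes (4.91% higher and 2.63% lower). DESeq2 and limma-voom called the same 2 genes, against 8.86% and 8.27% of all genes, and with an adjusted p-value of 0.05 *GCLM* was called too, against 16.8%. At an unadjusted p-value below 0.05 there were 4 of 9, against 32.4% of all genes. The median log2 fold change of the 9 genes was 0.16, against −0.0027 for all genes. The libraries of the conditions did not overlap for 6 of the 9 genes, 5 of them higher after knockdown, against 36.1% of all genes. Without ASO_CTRL replicate 1, 2 or 3 or ASO_LINC#3 replicate 1 the number of the 9 genes called fell to 0, and without ASO_LINC#3 replicate 2 to 1. Calls over all genes fell as well in these fits, to between 359 and 531, from 1106 in the main fit. Without ASO_LINC#3 replicate 3 the number was 4 of the 9, against 17.2% of all genes.

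**Figure D1:**
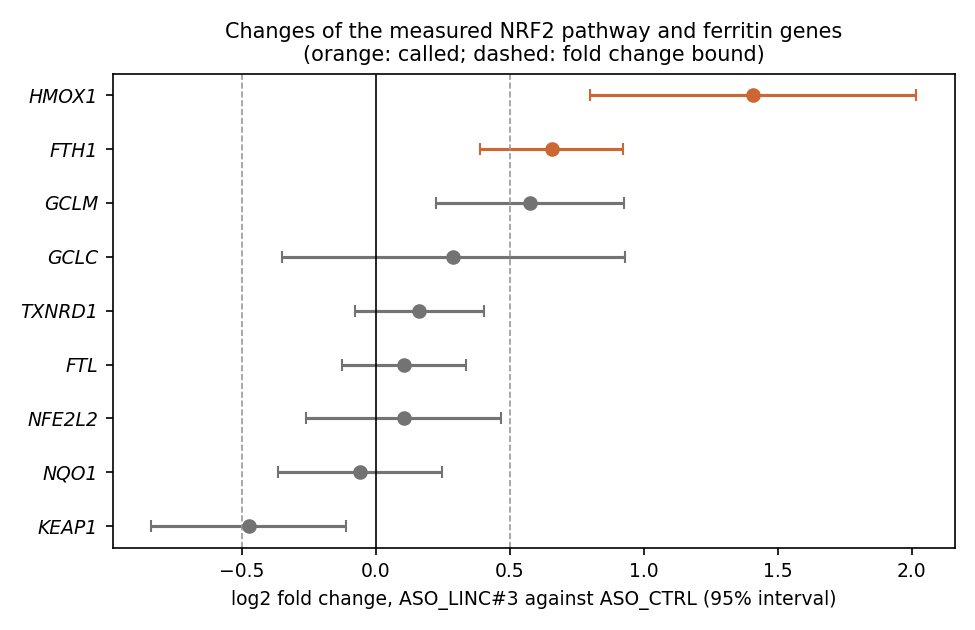
Log2 fold change of each measured gene, ASO_LINC#3 against ASO_CTRL, with its 95% interval from edgeR's quasi-likelihood fit (n = 3 libraries per condition). *HMOX1* and *FTH1*, in orange, were called, and the interval of *GCLM* lay above 0 and that of *KEAP1* below 0 without either being called.

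The factor and its inhibitor were measured first. *NFE2L2* lies at 178083395 to 178257484 of chromosome 2 (GRCh37, as for all positions of genes given, minus strand). It had 164, 136 and 155 CPM in ASO_CTRL replicates 1, 2 and 3 and 179, 184 and 124 CPM in ASO_LINC#3 replicates 1, 2 and 3. The conditions overlapped, with replicates 1 and 2 of the knockdown above all controls and replicate 3 below them. Its log2 fold change was 0.10 (95% interval −0.26 to 0.47, edgeR adjusted p = 0.705). The exons of *NFE2L2* overlap those of *HNRNPA3* on the opposite strand over 3509 bases. Reads there are uncertain if counting was not by strand, which also bears on the ratio of *NFE2L2* to *KEAP1* below. *KEAP1*, on the minus strand of chromosome 19 from 10596801 to 10614234, had 50.2, 48.2 and 42.5 CPM in the control and 27.3, 34.7 and 39.9 CPM in the knockdown libraries. The knockdown libraries lay below the controls, replicate 3 narrowly. The log2 fold change of −0.48 (standard error 0.16, 95% interval −0.84 to −0.11, adjusted p = 0.0693) passed neither bound. Without ASO_LINC#3 replicate 3 it was −0.60 (adjusted p = 0.00783), past both.

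Partners and regulators of NRF2, a list of 13 genes that were all tested, had 4 genes called higher and 0 lower, or 30.8%, against 7.54% of all genes, with a median log2 fold change of 0.24. Of the small MAF genes, *MAFF* and *MAFG* were called and *MAFK* was not. *MAFF* rose from a mean of 20.0 ± 1.67 to one of 73.4 ± 3.00 CPM (SD, n = 3 libraries), which is a log2 fold change of 1.88 with a standard error of 0.14 (adjusted p = 1.97e-05 from edgeR). Its libraries stood at 21.8, 19.4 and 18.6 CPM in ASO_CTRL and 73.9, 76.2 and 70.2 CPM in ASO_LINC#3, far apart between conditions and close within them. *MAFG* went up from a mean of 47.2 ± 4.26 to 104 ± 3.47 CPM, or a log2 fold change of 1.14 (adjusted p = 0.0003), while *MAFK* had a log2 fold change of 0.44 (adjusted p = 0.168). *BACH1*, the repressor that shares these partners, had 12.0, 10.7 and 12.2 CPM in the controls and 41.0, 38.7 and 23.0 CPM after knockdown. It rose by 1.57 on the log2 scale (standard error 0.22, adjusted p = 0.000954), with replicate 3 the lowest of the knockdown libraries. *SQSTM1*, the autophagy receptor p62 that binds KEAP1, was named after its values were seen and went up from a mean of 1879 ± 51.8 to 3121 ± 163 CPM, or a log2 fold change of 0.73 (adjusted p = 0.00129). Without ASO_CTRL replicate 3 its adjusted p-value was 0.0133. The ligase subunits were not called: *CUL3* had a log2 fold change of −0.49 (adjusted p = 0.0657) and *RBX1* one of −0.44 (adjusted p = 0.0692). *BTRC*, the substrate receptor of the other ligase that degrades NRF2, had −0.54 (adjusted p = 0.0575). For these 3 genes, as for *KEAP1*, the knockdown libraries lay below the controls without overlap. Of the 13 genes of the list, only these 3 did so, against 17.3% of all genes. Another 5 of the 13 lay above the controls without overlap, against 18.7% of all genes. These were the called genes and *NFE2L1*, which was not called (log2 fold change 0.52, adjusted p = 0.023). *GSK3B*, also of the list, had a log2 fold change of −0.04 (adjusted p = 0.94) with overlapping libraries.

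*HMOX1*, on the plus strand of chromosome 22 from 35776354 to 35790207, encodes the inducible heme oxygenase. It had 12.0, 17.9 and 12.9 CPM in ASO_CTRL replicates 1, 2 and 3, from 89, 104 and 135 reads. After *SWINGN* knockdown it had 31.3, 26.9 and 56.1 CPM, from 213, 157 and 207 reads. Every knockdown library lay above every control, and replicate 3 stood well above the other two. It rose from a mean of 14.3 ± 3.19 to one of 38.1 ± 15.8 CPM (SD, n = 3 libraries), which is a log2 fold change of 1.41 with a standard error of 0.28 (95% interval 0.80 to 2.02, adjusted p = 0.00637 from edgeR). Leaving out ASO_LINC#3 replicate 3 gave 1.05 on the log2 scale (adjusted p = 0.00121). The call was lost without ASO_CTRL replicate 1 (adjusted p = 0.0317), 2 (0.0145) or 3 (0.0397) or ASO_LINC#3 replicate 1 (0.0155), with log2 fold changes between 1.31 and 1.60.

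*NQO1*, on the minus strand of chromosome 16 from 69740899 to 69760571, encodes a quinone reductase that is among the most used readouts of NRF2. Its libraries had 274, 264 and 259 CPM in ASO_CTRL and 221, 244 and 303 CPM in ASO_LINC#3. The controls lay inside the range of the knockdown libraries, whose replicate 3 was the highest of all. The log2 fold change was −0.06 (95% interval −0.36 to 0.25, adjusted p = 0.812), so that a change of 0.5 in either direction lay outside the interval.

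**Figure D2:**
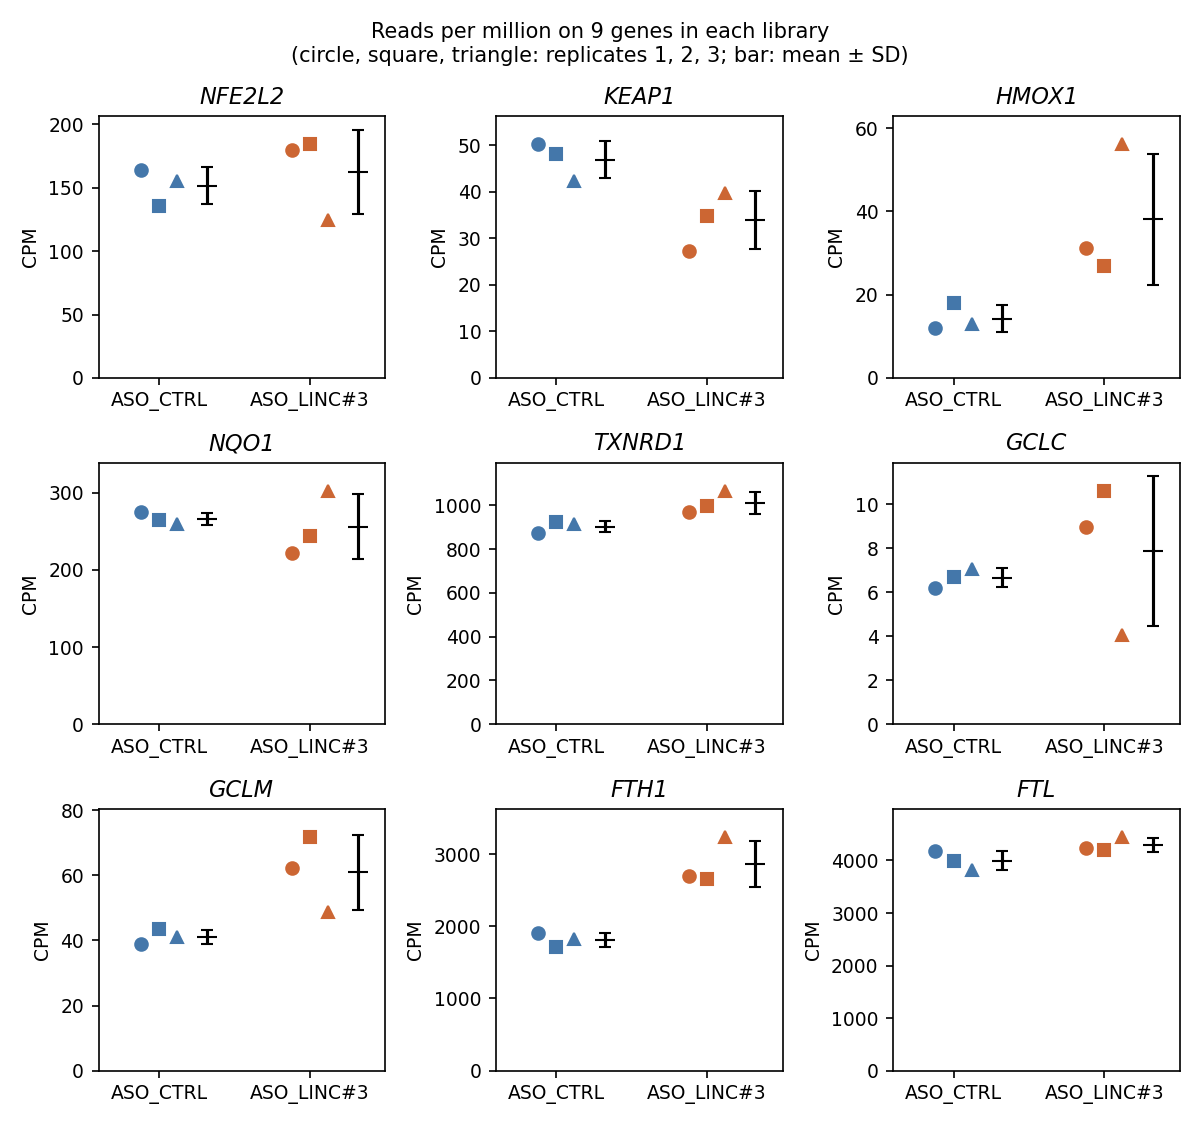
CPM of each measured gene in every library, ASO_CTRL in blue and ASO_LINC#3 in orange, with the mean and SD of each condition (n = 3) as a bar beside the points and every axis from 0. *HMOX1* and *FTH1* separate clearly, *NQO1*, *NFE2L2* and *GCLC* overlap, and replicate 3 of the knockdown, the triangle, is often apart from replicates 1 and 2.

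Glutathione is made in its first step by glutamate-cysteine ligase, whose catalytic subunit is encoded by *GCLC* and whose modifier subunit by *GCLM*. *GCLM*, on the minus strand of chromosome 1 from 94350755 to 94375012, had 38.9, 43.4 and 41.0 CPM in ASO_CTRL and 62.3, 71.7 and 48.8 CPM in ASO_LINC#3. All knockdown libraries lay above the controls, replicate 3 by the least. Its log2 fold change of 0.57 (standard error 0.16, 95% interval 0.22 to 0.93, adjusted p = 0.0307) exceeded 0.5, but its adjusted p-value missed the threshold. It passed both without ASO_LINC#3 replicate 3, at 0.71 (adjusted p = 0.000978). *GCLC*, on the minus strand of chromosome 6 from 53362139 to 53481768, was covered by only 46, 39 and 74 reads in the controls and 61, 62 and 15 reads in the knockdown libraries. In CPM these were 6.20, 6.71 and 7.06 against 8.97, 10.6 and 4.07, with replicate 3 of the knockdown below and the others above the controls. The log2 fold change of 0.29 (adjusted p = 0.53) had a 95% interval from −0.35 to 0.93, so that neither no change nor one as large as that of *GCLM* could be told at this depth.

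*TXNRD1*, on the plus strand of chromosome 12 from 104609557 to 104744085, encodes the cytosolic reductase of thioredoxin. It had 873, 922 and 914 CPM in ASO_CTRL and 968, 998 and 1067 CPM in ASO_LINC#3. The conditions did not overlap, but the difference was small, with means of 903 ± 26.3 and 1011 ± 51.0 CPM (SD, n = 3 libraries). The log2 fold change was 0.16 (95% interval −0.08 to 0.40, adjusted p = 0.336).

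Of 26 further genes of glutathione and thioredoxin metabolism, 21 were tested, 2 were called higher and 0 lower, or 9.52%, a share near the 7.54% of all genes. The median log2 fold change was 0.07. *SLC7A11*, the cystine transporter that supplies glutathione synthesis and also a target of ATF4, rose from a mean of 7.73 ± 1.44 to one of 22.3 ± 2.41 CPM (SD, n = 3 libraries), which is a log2 fold change of 1.52 with a standard error of 0.19 (adjusted p = 0.000567 from edgeR). Its libraries had 6.60, 7.23 and 9.35 CPM in ASO_CTRL and 23.4, 24.0 and 19.5 CPM in ASO_LINC#3, without overlap. *TXNIP*, an inhibitor of thioredoxin, went up from a mean of 69.8 ± 1.66 to 165 ± 26.0 CPM, or a log2 fold change of 1.25 (adjusted p = 0.000312). Thioredoxin itself, *TXN*, had a log2 fold change of 0.06 (adjusted p = 0.877). Glutathione reductase, *GSR*, had 0.08 (adjusted p = 0.766) and glutathione synthetase, *GSS*, 0.12 (adjusted p = 0.616). Of the 21 genes, 5 lay higher and 4 lower after knockdown without overlap, against 18.7% and 17.3% of all genes. Among those uncalled, *GLRX* had a log2 fold change of 1.07 (adjusted p = 0.0183), *SLC3A2* 0.40 (adjusted p = 0.0479) and *GSTM3* −0.58 (adjusted p = 0.0321). Without ASO_LINC#3 replicate 3, 6 of the list were called, while calls over all genes also went up, to 17.2%.

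Genes for NADPH supply, detoxification and export, the widest group of NRF2 targets, gave no call in either direction. Of the 25 listed, 16 were tested and 0 called by edgeR, DESeq2 or limma-voom, against 7.54%, 8.86% and 8.27% of all genes. A list of this length can give 0 calls at such shares. In edgeR 7 of the 16 had an unadjusted p-value below 0.05, against 32.4% of all genes. The median log2 fold change was 0.11, with 9 genes above 0 and 7 below. The smallest p-values were those of *OSGIN1*, an oxidative stress-induced growth inhibitor, and *UGDH*, which makes UDP-glucuronate for conjugation. *OSGIN1* had 2.83, 1.89 and 2.10 CPM in ASO_CTRL and 4.56, 3.94 and 10.8 CPM in ASO_LINC#3, again highest in replicate 3. The fit gave it a log2 fold change of 1.41 with a standard error of 0.40 (adjusted p = 0.0343), and *UGDH* one of 0.57 (adjusted p = 0.0358). Without ASO_LINC#3 replicate 3, where 17.2% of all genes were called, 3 of the list were called, *UGDH* among them (0.64, adjusted p = 0.00717), and *OSGIN1* stood at 0.90 (adjusted p = 0.0395). *AKR1C1*, *AKR1C2* and *AKR1C3* were below the filter on low counts.

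**Figure D3:**
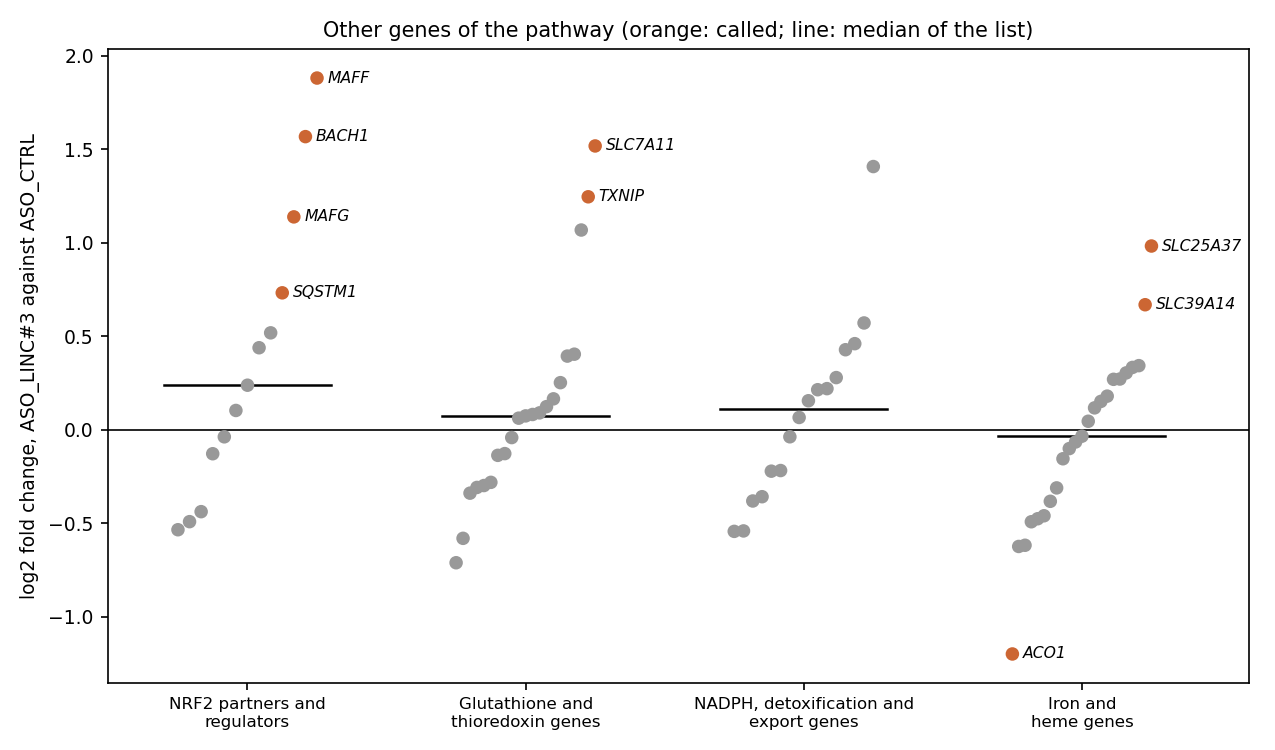
Log2 fold changes, ASO_LINC#3 against ASO_CTRL, of the tested genes of the 4 further lists, sorted within each list, with called genes in orange and named and the median of each list as a line. The medians lie between −0.03 and 0.24, and of the called genes 8 are higher and *ACO1* is lower.

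Ferritin is a shell of heavy chains, which oxidise iron, and light chains, which help to mineralise it. *FTH1*, on the minus strand of chromosome 11 from 61727190 to 61735106, had 1905, 1711 and 1831 CPM in ASO_CTRL and 2702, 2653 and 3235 CPM in ASO_LINC#3. The conditions were widely separated, with replicate 3 the highest. It rose from a mean of 1816 ± 97.8 to one of 2863 ± 323 CPM (SD, n = 3 libraries), which is a log2 fold change of 0.66 with a standard error of 0.12 (95% interval 0.39 to 0.92, adjusted p = 0.00467 from edgeR). *FTL*, on the plus strand of chromosome 19 from 49468566 to 49470136, had 4177, 3985 and 3817 CPM in the controls and 4240, 4195 and 4444 CPM after knockdown. Its libraries did not overlap either, but the gap was narrow and the log2 fold change was 0.10 (95% interval −0.13 to 0.34, adjusted p = 0.529). The *FTH1* call was lost without ASO_CTRL replicate 1 (adjusted p = 0.0152), 2 (0.0214) or 3 (0.0300) or ASO_LINC#3 replicate 1 (0.0197) or 2 (0.0114), with log2 fold changes between 0.62 and 0.71, and without ASO_LINC#3 replicate 3 it was kept at 0.56 (adjusted p = 0.00107).

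*FTH1* has many processed pseudogenes, copies of its mRNA elsewhere in the genome, so reads can be placed on the wrong copy. Of the 1129 stretches of 75 bases, the read length, in the *FTH1* transcript, 31.5% occurred letter for letter in at least 1 of the 14 pseudogenes in the table, and for *FTL* 9.54% of 797 did so in its 2 pseudogenes. The *FTH1* pseudogene rows took from 26.4% to 30.5% of the reads of the family in a library, and the *FTL* ones from 8.82% to 10.6%. Of 12 *FTH1* pseudogenes tested, 10 were called higher and 0 lower, against 4.91% and 2.63% of all genes. The 12 pseudogenes had log2 fold changes from 0.03 to 1.08 and a median of 0.95. *FTH1P20* rose from a mean of 72.3 ± 9.53 to one of 149.9 ± 3.11 CPM (SD, n = 3 libraries; adjusted p = 0.000637 from edgeR). *FTH1P10*, the row with the most reads, had a log2 fold change of 0.63 (adjusted p = 0.0121), and *FTH1P12* one of 0.03. Pseudogenes of the light chain had 0.22 for *FTLP2* (adjusted p = 0.259) and 0.33 for *FTLP3* (adjusted p = 0.0874). Rows of a family share reads, so they are not separate evidence. With the pseudogene reads added to their parent gene *FTH1* had a log2 fold change of 0.70 (adjusted p = 0.00261). The exons of *FTH1* also overlap those of *BEST1* on the opposite strand over 1267 bases, where reads are uncertain if counting was not by strand, and *BEST1* had at most 20 reads in a library.

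**Figure D4:**
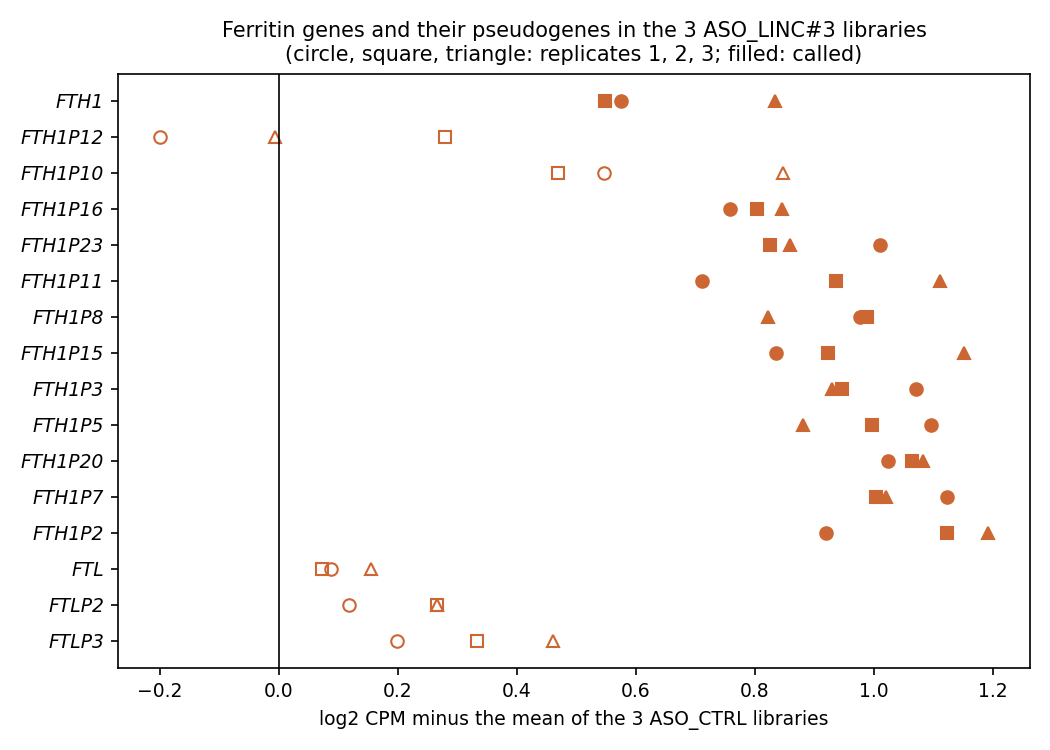
Change of each ferritin row in the 3 ASO_LINC#3 libraries, as log2 CPM minus the mean of the ASO_CTRL libraries, with filled symbols for called rows. *FTH1* and its pseudogenes other than *FTH1P12* lie to the right of *FTL*, *FTLP2* and *FTLP3* in every library.

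Genes that handle iron and heme beside ferritin, 23 tested of 30, gave 2 called higher and 1 lower, or 13.0%, against 7.54% of all genes (4.91% higher and 2.63% lower), with a median log2 fold change of −0.03. *ACO1*, the cytosolic aconitase that becomes iron regulatory protein 1 and binds the hairpin printed above, fell. Its libraries had 363, 346 and 356 CPM in ASO_CTRL and 171, 151 and 141 CPM in ASO_LINC#3, without overlap. The log2 fold change was −1.20 (standard error 0.12, 95% interval −1.47 to −0.93, adjusted p = 0.000168 from edgeR). *IREB2*, which encodes iron regulatory protein 2, had a log2 fold change of 0.33 (adjusted p = 0.233) with overlapping libraries. *SLC25A37*, the mitochondrial iron importer mitoferrin-1, rose from a mean of 195 ± 22.2 to one of 385 ± 28.0 CPM (SD, n = 3 libraries), which is a log2 fold change of 0.98 (adjusted p = 0.00077). *SLC39A14*, a zinc and iron importer of the plasma membrane, had a log2 fold change of 0.67 with an adjusted p-value just inside the threshold, 0.00987. It kept its call only without ASO_LINC#3 replicate 3 among the fits with a library left out, and the others gave adjusted p-values of 0.0308 to 0.0485. The transferrin receptor *TFRC*, whose mRNA is stabilised by the same iron regulatory proteins, had a log2 fold change of −0.16 (95% interval −0.44 to 0.13, adjusted p = 0.445). *NCOA4*, the receptor that delivers ferritin to autophagy, had −0.49 (adjusted p = 0.025) and was not called. *SLC39A8*, *CYBRD1*, *SLC11A2* and *SLC25A28*, also uncalled, had −0.62, −0.62, −0.48 and −0.46 (adjusted p = 0.0284, 0.0243, 0.0529 and 0.123). Of the 23 genes, 5 lay higher and 7 lower after knockdown without overlap, against 18.7% and 17.3% of all genes.

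Ratios of reads within a library do not depend on library scaling, and 4 pairs were compared by an exact two-sided permutation test, which with 3 libraries against 3 cannot give a p-value below 0.1. The log2 ratio of *FTH1* to *FTL* reads was −1.13, −1.22 and −1.06 in ASO_CTRL and −0.65, −0.66 and −0.46 in ASO_LINC#3. It was higher in 3 of 3 knockdown libraries, by 0.55 on average (exact permutation p = 0.1, adjusted p = 0.133 over the 4 ratios). The log2 ratio of *HMOX1* to *NQO1* was −4.52, −3.89 and −4.33 in the controls and −2.82, −3.18 and −2.43 after knockdown. It was likewise higher in 3 of 3, by 1.43 (exact permutation p = 0.1, adjusted p = 0.133). The log2 ratio of *GCLM* to *GCLC* was higher by 0.42 (exact permutation p = 0.1, adjusted p = 0.133), of which replicate 3 carried most, since without it the difference was 0.15. The log2 ratio of *NFE2L2* to *KEAP1* was 1.71, 1.49 and 1.87 in the controls and 2.71, 2.41 and 1.64 after knockdown, a difference of 0.56 with overlap (exact permutation p = 0.3, adjusted p = 0.3). Without ASO_LINC#3 replicate 3 that difference was 0.87.

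**Figure D5:**
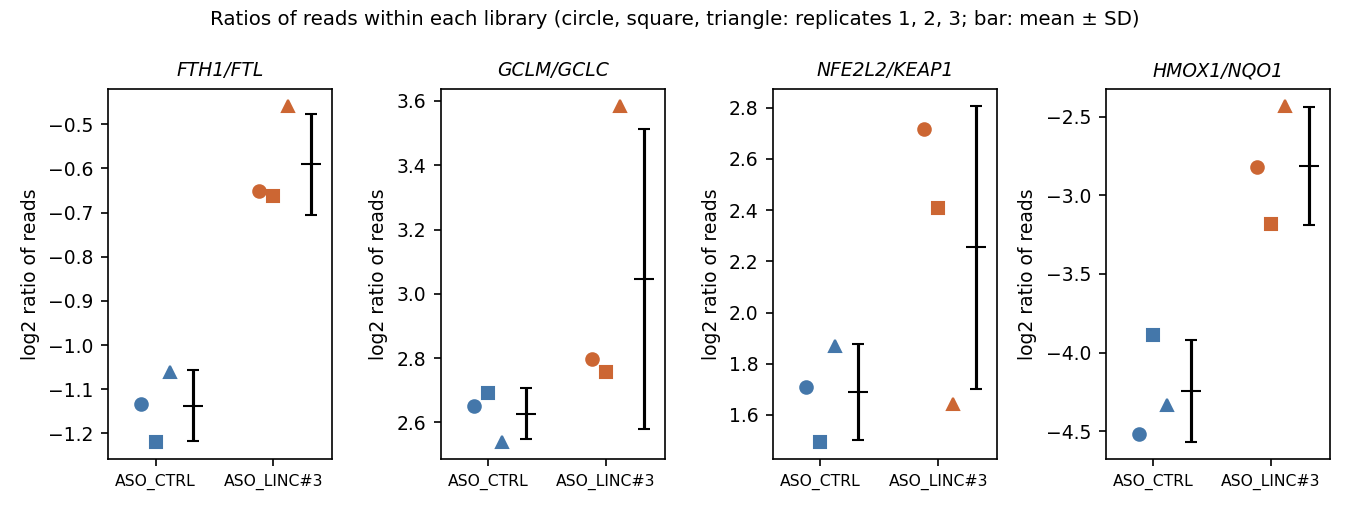
Log2 ratio of the reads of 2 genes within each library, ASO_CTRL in blue and ASO_LINC#3 in orange, with the mean and SD of each condition (n = 3), on axes that do not start at 0. The conditions are well apart for *FTH1/FTL* and *HMOX1/NQO1* and narrowly for *GCLM/GCLC*, and in *NFE2L2/KEAP1* the triangle of ASO_LINC#3 replicate 3 lies among the controls.

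ASO_LINC#3 replicate 3 differed from the other knockdown libraries along the set. It was the highest of the 3 knockdown libraries for 6 of the 9 genes, *KEAP1*, *HMOX1*, *NQO1*, *TXNRD1*, *FTH1* and *FTL*, and the lowest for 3, *NFE2L2*, *GCLC* and *GCLM*. The GC content of the longest transcript was from 44.2% to 60.8% in the former and from 37.3% to 44.2% in the latter. After removal of the trend that GC content and transcript length gave in each library, the changes of *GCLM* in the 3 knockdown libraries went from 0.60, 0.80 and 0.25 to 0.36, 0.52 and 0.36 on the log2 scale, and those of *KEAP1* from −0.77, −0.43 and −0.23 to −0.63, −0.23 and −0.54. Replicate 3 stayed apart for *NQO1*, at −0.323, −0.189 and 0.260, and for *GCLC*, at 0.325, 0.569 and −0.578, both with a GC content of 44.2%. The part of GC content in the difference of replicate 3 was not tested. *HMOX1*, at 1.32, 1.13 and 1.76, and *FTH1*, at 0.67, 0.62 and 0.83, stayed above 0 in all 3. In this fit *HMOX1* had a log2 fold change of 1.42 (adjusted p = 0.000441 from edgeR) and *FTH1* one of 0.71 (adjusted p = 0.000923), and they were again the only genes of the 9 called, against 11.7% of all genes.

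The genes whose pattern was most like that of *FTH1*, the gene of the set with the smallest p-value, were sought among 10220 others with a mean of at least 50 reads. By Pearson's r of log2 CPM over the 6 libraries they were *TNIP1* (0.997), *IL4R* (0.996) and *SHMT2* (0.995). The 6 points share 2 conditions and their libraries, and the log2 fold changes of these genes were 1.14, 0.66 and 0.67.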

How the data were processed

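RNA of H226 cells was reverse transcribed with dT primers and sequenced as single reads of 75 bp. Per the labels and methods, alignment used STAR and hg19. The authors deposited unnormalized counts, 1 whole number for each gene name and library. The counting tool, annotation and strand setting are not given in the sources used here. The 4 rows of unassigned reads were left out, and the table has 0 columns of other samples.

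Counts were analysed in R 4.3.3 with edgeR 4.0.16 (filterByExpr, TMM scaling, quasi-likelihood F-test over 14660 genes without a replicate block, Benjamini-Hochberg adjustment), with the study's thresholds of 0.01 and 0.5. The common biological coefficient of variation was 0.159. CPM are mean ± SD, and the change in a library is its log2 CPM (prior count 2) less the mean of the controls. Counts of replicates differed beyond sampling noise, with a chi-square per degree of freedom from 2.50 to 14.0.

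The members and gene lists were chosen with earlier results of these data known. Named are all members and, of each further list, the called genes (at most 3 per direction, by p-value) or, with none called, the 2 with the smallest p-values. Other genes of the lists, all those in the text but not under this rule, were named for their role or direction after their values were seen. The most similar patterns were the 3 highest correlations. Alternatives were DESeq2 1.42.0, limma-voom (limma 3.58.1), other scalings, filters, dispersions and thresholds, glmTreat, a replicate block and leaving out each library. Removal of the GC content and length trend (splines of 5 degrees of freedom, for 87.2% of tested genes) and adding pseudogene reads were chosen after seeing the data. Positions come from GENCODE lifted to GRCh37, possibly another release than the authors used.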

Additional observations from a re-analysis of the deposited data

How the results depend on the processing

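The 2 genes called, *HMOX1* and *FTH1*, were called alike by DESeq2, limma-voom, other scalings, other filters and robust dispersion. The number called was 0 when glmTreat asked for a change beyond 0.5, 1 with the replicate block, and from 0 to 4 when single libraries were left out. Same-numbered libraries did not deviate together (correlations of 0.059, −0.149 and −0.180, with 1 of 3 control libraries correlating best with its own number), so the numbers were not taken as pairs. With the replicate block 656 genes were called in all, against 1106 without, and *FTH1* had an adjusted p-value of 0.0152. Of glutathione and thioredoxin genes, 2 were called, 4 at an adjusted p-value of 0.05, 4 with the GC content and length trend removed, and from 2 to 6 with single libraries left out. Of the NADPH, detoxification and export genes, 0 were called, 2 at 0.05, 1 with the trend removed, and from 0 to 3 with single libraries left out. Of iron and heme genes, 3 were called, 5 at 0.05, 1 under glmTreat and 6 with the trend removed. The thresholds of 0.05 and of glmTreat change the counts by construction, and the cause of the other shifts was not tested. Called genes in all were 384 under glmTreat, 2465 at 0.05, 1715 with the trend removed and from 359 to 2616 with single libraries left out. The sign turned for *NFE2L2* with the trend removed (−0.01) and for *NQO1* (from −0.19 to 0.04 with single libraries left out, positive without ASO_LINC#3 replicate 1), neither called. The 4 ratios kept their sign throughout. Depth limits *GCLC*, which has 15 reads in the shallowest library.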
